A study of Mus musculus with 12 samples.

Results

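The 37 genes described here encode the machinery that builds, closes and loads autophagosomes, and they were followed through eye tissue of mice that had fasted or fed freely and had or had not received the retinal toxicant NaIO3. The members were taken by gene symbol from the deposited count table, where 37 of 37 were found among 21930 genes. They were grouped by role into 4 initiation genes, 7 nucleation genes, 5 membrane supply genes, 10 conjugation genes, 5 genes of ATG8 proteins, 4 cargo receptors and 2 transcription factors. RNA-seq had been run on male wild-type C57BL/6J mice, with 3 libraries in each of 4 groups. AL mice had free access to food. IF mice fasted on alternate days for 12 weeks from the age of 8 weeks, and kept that diet after injection. In AL+PBS and IF+PBS the mice received an intraperitoneal injection of vehicle, in AL+NaIO3 and IF+NaIO3 they received 25 mg/kg NaIO3 by the same route, and tissue was taken 7 days later. NaIO3 is a systemic oxidant that injures the retinal pigment epithelium (RPE) first and the photoreceptors after it, so these groups model an acute toxic injury. All groups were injected, and the labels give neither the number of mice behind a library nor the day of the fasting cycle on which IF tissue was taken.

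Autophagy starts when the ULK kinase complex is released from inhibition by mTORC1 or is switched on by AMPK. A class III phosphatidylinositol 3-kinase complex then marks a membrane with a lipid that recruits WIPI proteins, ATG2 proteins supply lipids to it, and ATG9A vesicles seed it. Conjugation enzymes attach ATG8 proteins (the LC3 and GABARAP families) to the growing membrane, and cargo receptors tie ubiquitinated cargo to them. Much of the control of this pathway is by phosphorylation and lipidation of proteins, which transcript levels do not report. In the RPE, part of the same conjugation machinery also takes part in digesting the photoreceptor outer segments that these cells engulf each day.

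Library totals were between 26364665 and 43046950 counts (median 31822705), and the members together took between 0.333% and 0.358% of the counts of a library. Counts of the members ran from 99, for Atg4a, to 16639, for Tax1bp1. The labels name the tissue as a complex of RPE, choroid and sclera and the methods name eye cups, and the libraries held RNA of several layers. The RPE genes Rpe65 and Best1 were at 19.1 to 67.6 and at 0.1 to 0.6 FPKM (fragments scaled by gene length and library size, as deposited). In such bulk tissue, fewer cells of a type and less RNA per cell cannot be told apart. Of the libraries, 3 stood apart in marker genes. AL+NaIO3 replicate 3 had a summed level of 7 choroid and sclera genes of 516 FPKM, against 20.8 to 67.4 in the others, and the lowest sum of 10 photoreceptor genes, 6349 FPKM against 11367 to 17070. AL+PBS replicate 2 had 149 FPKM of 6 lens genes, against 0.5 to 3.4 elsewhere, and IF+PBS replicate 1 had the lowest sum of 7 skeletal muscle genes, 27.3 FPKM against 54.1 to 186 elsewhere.

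Levels between genes were compared in FPKM. As means over the 12 libraries, the genes of ATG8 proteins and cargo receptors stood highest. Gabarapl1, a GABARAP family member, was at 147 FPKM (range 129 to 173). Sqstm1, which encodes the receptor p62, was at 95.7 FPKM (range 80.2 to 129), and Tax1bp1, a receptor of ubiquitinated cargo, was at 94.6 FPKM (range 82.1 to 120.1). The first 9 places all belonged to these groups, since Map1lc3a, Gabarapl2, Optn, Nbr1, Map1lc3b and Gabarap followed at 75.4, 68.6, 61.8, 51.9, 41.8 and 28.0 FPKM. Summed over a role, the ATG8 genes came to 318.6 to 421.8 FPKM in a library, the receptors to 291.9 to 314.9, the conjugation genes to 115.6 to 133.4, the nucleation genes to 71.3 to 87.8 and the initiation genes to 67.7 to 77.4. The enzymes and complexes upstream of them were lower, from 25.5 FPKM for the ULK complex subunit Atg13 down to 2.24 FPKM for the protease Atg4a. The lowest 4 were Tfeb at 5.13, Atg10 at 4.56, Atg2a at 2.81 and Atg4a at 2.24 FPKM. The ratio of the highest mean to the lowest was 65.5. The ranges over libraries overlapped in 36 of 36 pairs of neighbours in this order. Compared library by library, the higher member of a pair was above the lower one in every library for 4 of the 36 pairs, Gabarapl1 over Sqstm1, Map1lc3b over Gabarap, Wipi2 over Atg4b and Atg10 over Atg2a, whereas the order of the other 32 pairs turned in at least 1 library. The median of the members' means was 16.1 FPKM, against 4.61 FPKM over 18927 genes with a count in any library, and 34 of 37 members lay above the latter.

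**Figure D1:**
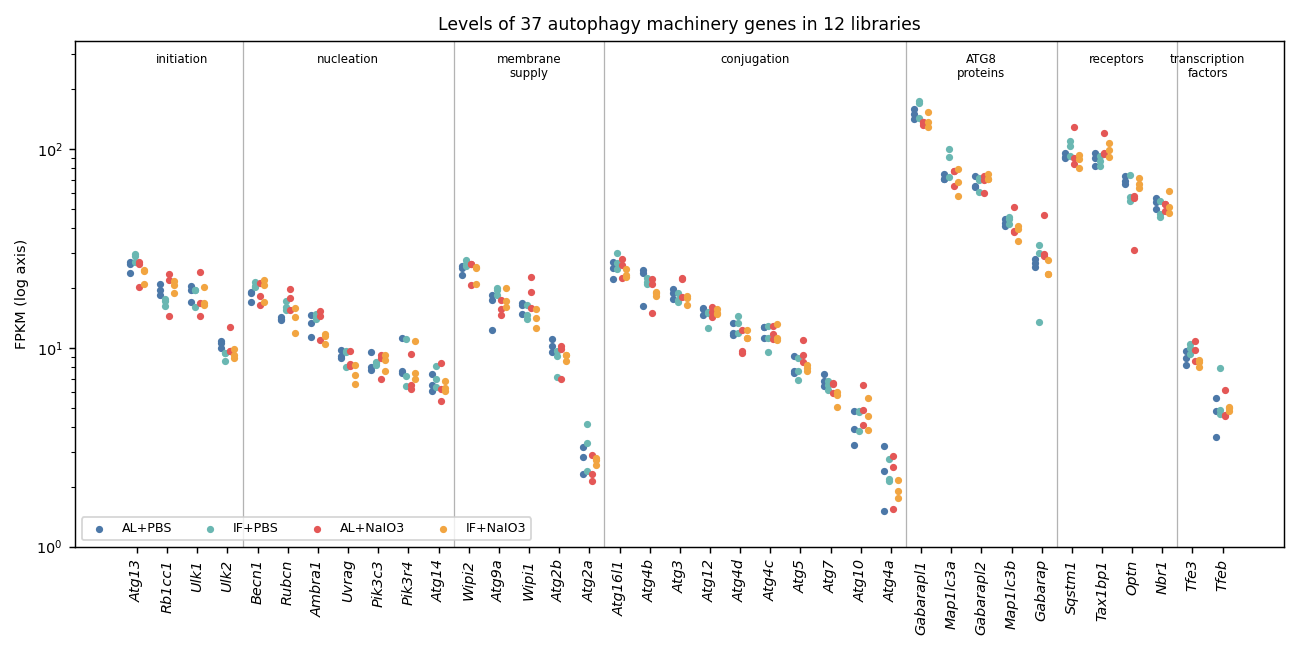
FPKM of the 37 genes on a log axis, 1 point for each of 12 libraries, coloured by group and ordered by role and then by mean level. The genes of ATG8 proteins and receptors lie at 13.4 FPKM or higher in all libraries, and the points of the 4 groups lie close together for most genes.

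The members varied little among the libraries. On the scale of CPM (counts scaled to library size, with TMM factors), the ratio of the highest library to the lowest was 1.22 for Rubcn at the low end and 3.03 for Gabarap at the high end, with Optn next at 2.72. Of the 444 values, 438 (98.6%) lay within 0.5 of the mean of their gene in log2 CPM. The 6 values beyond it belonged to Gabarap in IF+PBS replicate 1 (-1.03) and AL+NaIO3 replicate 3 (0.57), Optn in AL+NaIO3 replicate 3 (-1.17), Atg2a and Tfeb in IF+PBS replicate 2 (0.60 and 0.57), and Atg4a in AL+PBS replicate 3 (-0.57). No group of 3 libraries was shifted as a whole by that amount for any member. No like share over all genes is given, so these values describe the members alone.

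**Figure D2:**
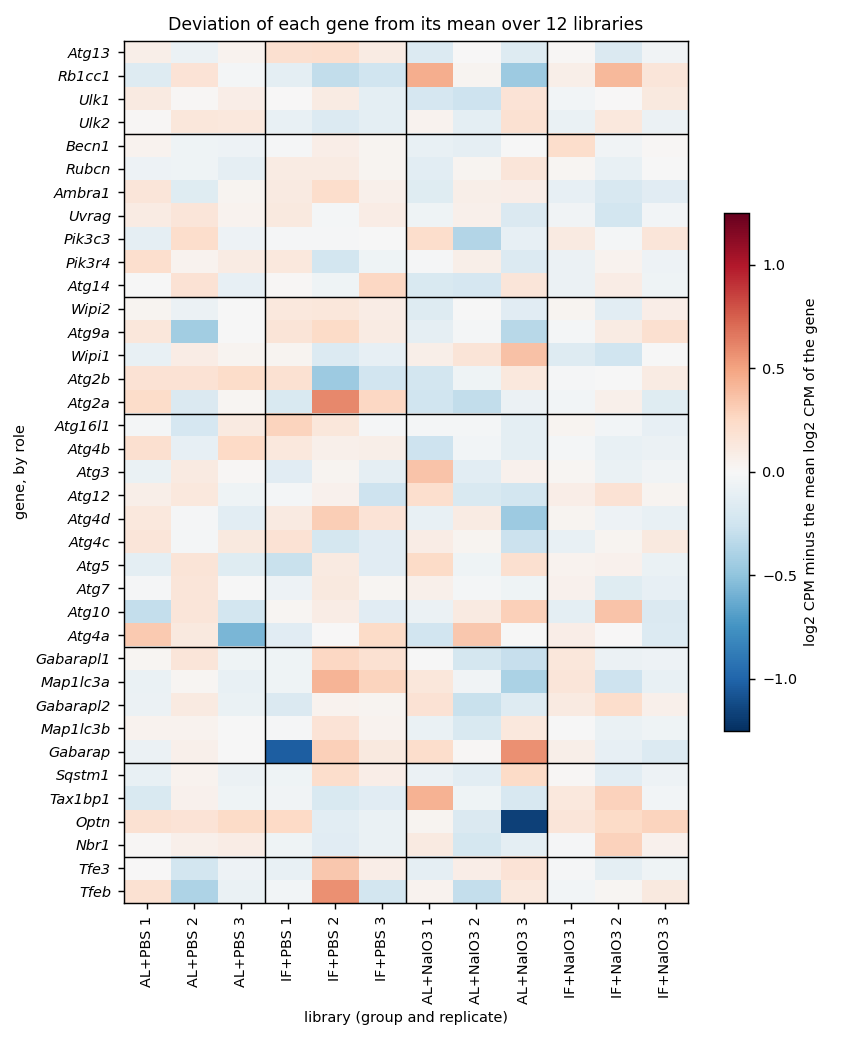
Deviation of log2 CPM from the mean of each gene (colour) for 37 genes (vertical axis, by role) in 12 libraries (horizontal axis, by group). Colours are pale nearly throughout, and the 2 strongest cells are Optn in AL+NaIO3 replicate 3 at -1.17 and Gabarap in IF+PBS replicate 1 at -1.03.

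AL+NaIO3 against AL+PBS asks whether the injury shifts these genes in freely fed mice. None of the 37 members was called by edgeR's quasi-likelihood test at a Benjamini-Hochberg adjusted p under 0.05 and a fold of at least 1.5, where 0.0769% of the genes tested were called, and DESeq2 called 0 as well. With no fold threshold, DESeq2 gave an adjusted p under 0.05 to 441 of 15612 genes, against 12 with edgeR, and to 0 members. The p-values judge a difference between groups against the spread between these libraries. An unadjusted p under 0.05 was reached by 0 members with either tool, against 10.2% of all genes with edgeR and 12.2% with DESeq2. It was reached by 3 members, all lower, without AL+NaIO3 replicate 1 (beside 18.7% of all genes) and by 3, all lower, without replicate 3 (12.2%). The median log2 fold change of the members was -0.053, against 0.014 over all genes, with 12 members above 0 and 25 below. It was -0.084 without AL+NaIO3 replicate 1, -0.035 without replicate 2 and -0.021 with upper quartile factors in place of TMM. The medians by role were -0.086 for initiation, -0.079 for nucleation, -0.081 for membrane supply, -0.028 for conjugation, -0.053 for ATG8 proteins, -0.027 for receptors and 0.10 for the transcription factors. The injured and uninjured groups did not overlap for 2 members, Atg2b and Optn, each lower after NaIO3, whereas 18.1% of all genes had groups that did not overlap. For 31 members the 95% interval of the difference lay inside a fold of 1.5 in either direction, as for 42.1% of all genes. The other 6 members were Atg2a, Atg4a, Atg10, Gabarap, Optn and Tax1bp1. Macrophage and microglia markers moved with this comparison, being higher in 10 of 10 genes with a median log2 fold change of 2.40 (summed level 26.6 to 28.6 FPKM in AL+PBS and 78.6 to 251 in AL+NaIO3, no marker at 0 throughout). RPE markers had a median of -0.54 and were lower in 6 of 10 genes (1002 to 1090 FPKM summed in AL+PBS, 595 to 1116 in AL+NaIO3, with Rpe65 at 47.2 to 64.1 and at 19.1 to 29.2). The sum of 1116 FPKM was that of AL+NaIO3 replicate 3, against 600 and 595 in replicates 1 and 2. In replicate 3, Dct, Mlana and Tyr were at 343, 72.2 and 15.0 FPKM, against 30.5 to 74.8, 5.2 to 26.9 and 0.7 to 1.7 in the others. Rlbp1 is on this list and on that of Muller cells and astrocytes. Photoreceptor markers were lower in 8 of 10 genes (median -0.50), lens markers in 4 of the 4 tested (-3.92), and Muller cell and astrocyte markers higher in 6 of 8 (0.41). Lens sums were 3.44, 149 and 2.79 FPKM in AL+PBS replicates 1, 2 and 3, against 0.47 to 0.77 in AL+NaIO3. Choroid and sclera markers were higher in 7 of 7 genes (median 1.5), erythrocyte markers higher in 5 of 5 (0.83) and skeletal muscle markers lower in 7 of 7 (-0.27). Choroid and sclera sums were 57.7, 32.3 and 516 FPKM in AL+NaIO3 replicates 1, 2 and 3, against 42.6 to 67.4 in AL+PBS. Erythrocyte sums were 166, 50.7 and 275 FPKM, against 81.3 to 105. The part of all these lists in the members' values was not tested.

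IF+NaIO3 against AL+NaIO3 asks whether fasting shifts the genes in injured eyes. Here too, 0 of 37 members were called by edgeR's quasi-likelihood test or by DESeq2, beside 0.0383% of all genes called by edgeR. DESeq2 gave an adjusted p under 0.05, at any fold, to 501 of 15648 genes, against 6 with edgeR, and to 0 members. Wipi1, lower in IF+NaIO3, was the 1 member with an unadjusted p under 0.05, against 11.7% of all genes (DESeq2 gave 2 members, beside 13.5%). The count was 4 without AL+NaIO3 replicate 1, beside 22.0% of all genes, and 0 without replicate 3, beside 9.29%. The median of the members was 0.042 and that of all genes -0.013, with 22 members above 0 and 15 below. The former was 0.015 without AL+NaIO3 replicate 1, 0.020 without replicate 3 and -0.0059 with upper quartile factors. Role medians ran from -0.033 for the transcription factors and -0.027 for conjugation to 0.090 for membrane supply and 0.11 for receptors, with 0.071 for initiation, 0.021 for ATG8 proteins and -0.0063 for nucleation between them. Groups did not overlap for 3 members, Wipi1 (lower) and Atg9a and Optn (higher), against 18.9% of all genes. The interval lay inside a fold of 1.5 for 31 members and 37.6% of all genes. The members outside were Rb1cc1, Wipi1, Atg4a, Atg10, Gabarap and Optn. The 10 macrophage and microglia markers were all lower in IF+NaIO3 (median -2.47), and the 10 photoreceptor markers all higher (median 0.53; summed level 6349 to 17070 FPKM in AL+NaIO3 and 14880 to 15809 in IF+NaIO3). Muller cell and astrocyte markers were lower in 6 of 8 genes (median -0.58), and RPE markers higher in 6 of 10 (0.26). Choroid and sclera markers were lower in 7 of 7 genes (median -2.0), skeletal muscle markers in 7 of 7 (-0.37) and erythrocyte markers in 5 of 5 (-0.23). Choroid and sclera sums were 57.7, 32.3 and 516 FPKM in AL+NaIO3 replicates 1, 2 and 3, against 34.2 to 44.0 in IF+NaIO3. Erythrocyte sums were 166, 50.7 and 275 FPKM, against 88.8 to 120. The part of all these lists was not tested.

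IF+PBS against AL+PBS asks for the effect of fasting without injury. The test called 0 members with edgeR and 0 with DESeq2, and edgeR called 0.0% of all genes. At any fold, DESeq2 gave an adjusted p under 0.05 to 470 of 15361 genes, none of them members, and edgeR to 0. An unadjusted p under 0.05 was found for 3 members, Map1lc3a (higher) and Ulk2 and Atg2b (lower), and for 17.1% of all genes, and DESeq2 also gave 3 members. The median was -0.012 for the members and 0.0055 for all genes, and 18 members were above 0 and 19 below. The initiation and receptor genes had medians of -0.15 and -0.10, the transcription factors 0.22, membrane supply 0.14, nucleation 0.055, ATG8 proteins 0.048 and conjugation -0.023. Groups did not overlap for 5 members, Ulk2 and Nbr1 (lower) and Atg13, Rubcn and Wipi2 (higher), beside 21.9% of all genes. The interval lay inside a fold of 1.5 for 32 members and 59.6% of all genes, with Atg2a, Atg2b, Atg4a, Gabarap and Tfeb outside. Without IF+PBS replicate 1, 13 members had an unadjusted p under 0.05 (6 higher, 7 lower), in a fit in which 29.6% of all genes did, and the median of the members became 0.082. In that fit 3 members, Atg2b, Map1lc3a and Optn, had an adjusted p under 0.05 in edgeR's test with a fold under 1.5. Without AL+PBS replicate 2 or 3, or without IF+PBS replicate 2 or 3, 0 members had an unadjusted p under 0.05, beside 9.33% to 10.7% of all genes, and without AL+PBS replicate 1 there were 4, beside 15.7%. Skeletal muscle markers were lower in IF+PBS for 7 of 7 genes (median -1.79; 98.8 to 186 FPKM summed in AL+PBS, 27.3 to 81.9 in IF+PBS), erythrocyte markers for 5 of 5 (-0.43), choroid and sclera markers for 6 of 7 (-0.85) and lens markers for 4 of the 5 tested (-2.88). Lens sums were 3.44, 149 and 2.79 FPKM in AL+PBS replicates 1, 2 and 3, against 0.87 to 1.33 in IF+PBS. RPE markers summed to 1002 to 1090 FPKM in AL+PBS and 1094 to 1478 in IF+PBS, with 5 of 10 genes higher (median 0.12). Inner retinal neuron markers were higher in 6 of 7 genes (median 0.063). The part of all these lists was not tested.

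IF+NaIO3 against IF+PBS asks for the effect of the injury in fasted mice. Again 0 members were called by edgeR's quasi-likelihood test and by DESeq2, beside 0.0% of all genes with edgeR. At any fold, DESeq2 gave an adjusted p under 0.05 to 339 of 15305 genes, 1 of them a member (Rb1cc1), and edgeR to 0. An unadjusted p under 0.05 was found for 5 members, Rb1cc1 and Tax1bp1 (higher) and Ambra1, Atg13 and Atg4d (lower), and for 15.2% of all genes. DESeq2 also gave 5 members, beside 16.0% of all genes. The median was -0.069 for the members and 0.00097 for all genes, with 17 members above 0 and 20 below. Receptor genes had a median of 0.20, initiation 0.081, conjugation -0.015, membrane supply -0.075, nucleation -0.087, ATG8 proteins -0.12 and the transcription factors -0.14. Groups did not overlap for 12 of the 37 members, against 20.9% of all genes. Of these, Ulk2, Rb1cc1, Gabarapl2, Tax1bp1 and Nbr1 were higher in IF+NaIO3, and Atg13, Uvrag, Ambra1, Rubcn, Wipi2, Atg4b and Atg4d were lower. The interval lay inside a fold of 1.5 for 33 members and 57.7% of all genes, with Rb1cc1, Atg2a, Map1lc3a and Gabarap outside. Without IF+PBS replicate 1, 14 members had an unadjusted p under 0.05 (5 higher, 9 lower), beside 24.0% of all genes, and Rb1cc1 had an adjusted p of 0.0446 in edgeR's test. With another library omitted in its place, 2 to 6 members had an unadjusted p under 0.05, beside 7.54% to 14.1% of all genes. RPE markers were lower in IF+NaIO3 for 10 of 10 genes (median -0.64; 1094 to 1478 FPKM summed in IF+PBS, 528 to 1015 in IF+NaIO3). Skeletal muscle markers were higher for 7 of 7 genes (median 0.89), erythrocyte markers for 5 of 5 (median 0.65) and choroid and sclera markers for 6 of 7 (median 0.39), and the part of these 4 lists was not tested. This comparison and the one of fasting without injury share the IF+PBS libraries, so that a member low in those libraries is lower in one and higher in the other by construction.

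The interaction asks whether the difference after NaIO3 depends on diet, and was fitted on the 12 libraries. By edgeR's quasi-likelihood test 0 of 37 members had an adjusted p under 0.05, beside 0.0313% of all genes, and DESeq2 gave 0 members among 215 of 15970 genes. Optn was the 1 member with an unadjusted p under 0.05, against 12% of all genes, and DESeq2 gave 2, beside 13.35%. Without AL+NaIO3 replicate 1 the count was 8, beside 22.5% of all genes, without IF+PBS replicate 1 it was 4, beside 15.9%, and with 1 of the others left out it was 0 to 3, beside 7.68% to 13.8%. The median of the members was -0.035 and that of all genes -0.022. By role it was 0.19 for initiation, 0.017 for nucleation, -0.035 for membrane supply, -0.057 for conjugation, -0.049 for ATG8 proteins, 0.22 for receptors and -0.24 for the transcription factors.

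**Figure D3:**
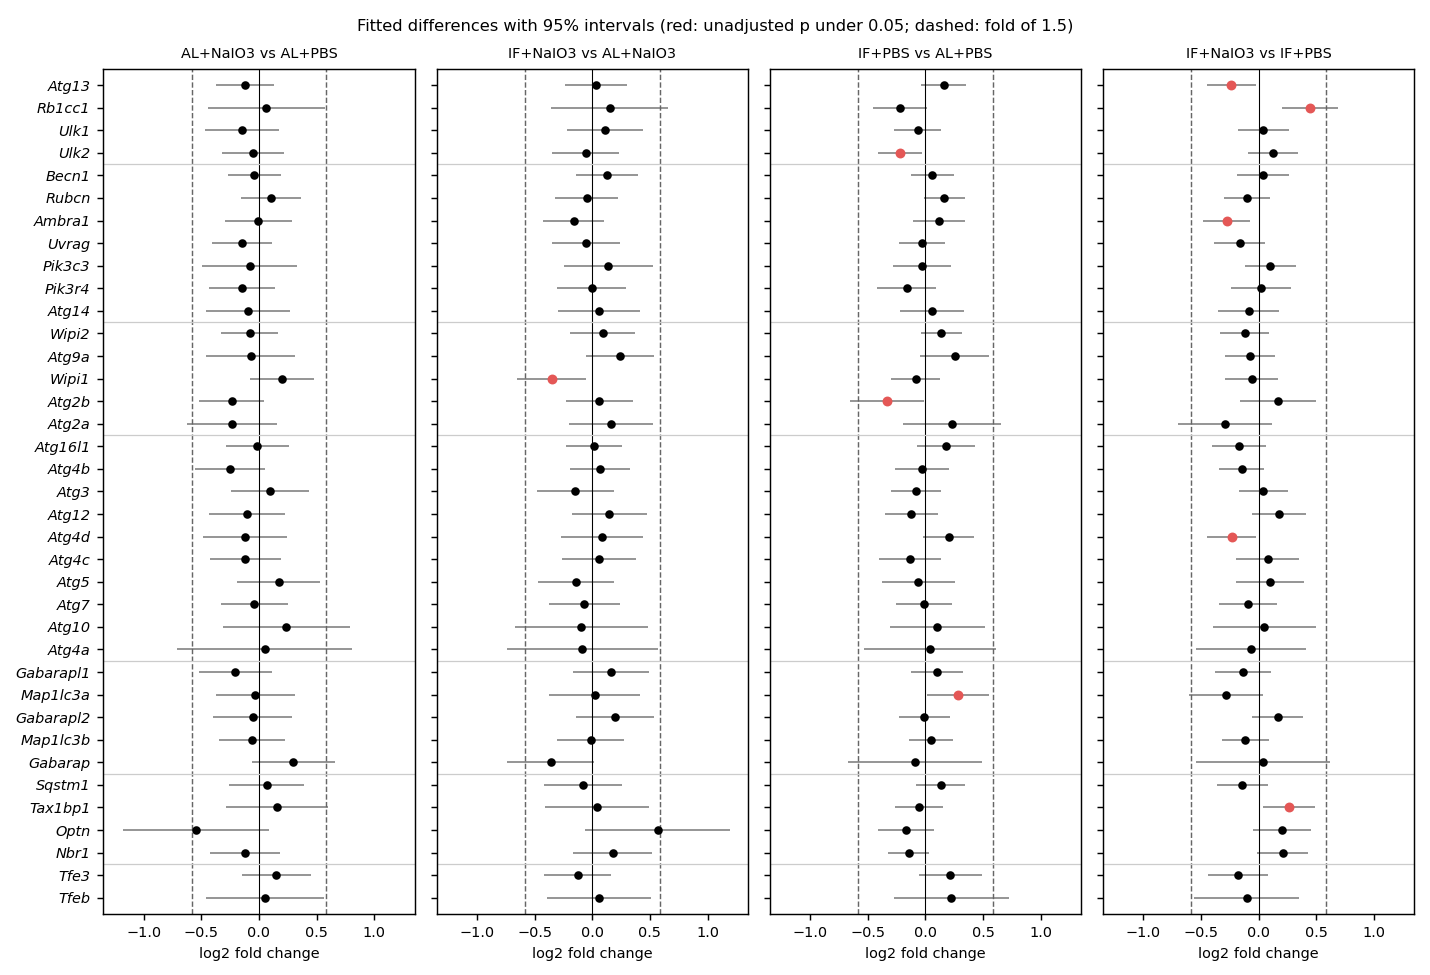
Fitted log2 fold change of each gene (points) with its 95% interval (bars) in 4 comparisons, by role, with dashed lines at a fold of 1.5 and red points at an unadjusted p under 0.05. All points lie between the dashed lines, and the intervals of Optn reach from -1.18 to 0.09 after NaIO3 in AL mice and from -0.06 to 1.20 for fasting in injured eyes.

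The initiation genes encode the ULK kinases and the scaffolds that hold them. Rb1cc1 (chr1:6206197-6276648 on GRCm38, as are all positions below), which encodes the scaffold FIP200, stood in CPM at 113, 143 and 125 in AL+PBS, 117, 102 and 107 in IF+PBS, 174, 129.9 and 92.7 in AL+NaIO3, and 134, 168 and 141 in IF+NaIO3. The 3 IF+NaIO3 libraries were all above the 3 IF+PBS libraries, while AL+NaIO3 spread across both. Its log2 fold change in IF+NaIO3 against IF+PBS was 0.44 ± 0.11 (SE), with a p of 0.00218 and an adjusted p of 0.212 by edgeR's quasi-likelihood test, the smallest p of any member in any comparison. With DESeq2 the adjusted p was 0.0183, at a fold under 1.5. In AL mice the difference after NaIO3 was 0.063 (95% interval -0.45 to 0.57), and the test of the difference between diets gave 0.39 with a p of 0.168. Without AL+NaIO3 replicate 1 these were -0.19 and 0.63 (p of 0.0112 by edgeR for the latter). Without replicate 3 they were 0.26 and 0.18 (p of 0.368 for the latter). Atg13 (chr2:91674618-91710576), the adaptor of the same complex, had 105, 95.5 and 104 in AL+PBS, 115, 116 and 107 in IF+PBS, 89.1, 100.4 and 89.6 in AL+NaIO3, and 101, 88.4 and 97.1 in IF+NaIO3. It was highest in the IF+PBS libraries, which overlapped neither AL+PBS nor IF+NaIO3. The difference was 0.16 ± 0.086 (SE) for fasting without injury, with a p of 0.0982, and -0.24 ± 0.096 for injury in fasted mice, with a p of 0.0327 and an adjusted p of 0.29.

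The kinase gene Ulk2 (chr11:61775649-61855073) was at 67.9, 74.2 and 73.6 in AL+PBS, 63.0, 59.5 and 61.8 in IF+PBS, 69.1, 61.6 and 76.5 in AL+NaIO3, and 63.4, 73.5 and 63.6 in IF+NaIO3. IF+PBS lay below AL+PBS without overlap, and the difference was -0.22 ± 0.086 (SE), with a p of 0.0252 and an adjusted p of 0.244. Its paralogue Ulk1 (chr5:110784488-110810097), the kinase most closely tied to nutrient control, was at 100.3, 93.7 and 98.8 in AL+PBS, 93.5, 99.9 and 85.3 in IF+PBS, 80.6, 77.9 and 105 in AL+NaIO3, and 91.1, 93.6 and 101 in IF+NaIO3. These 4 groups overlapped, and the largest Ulk1 difference in the 4 comparisons was -0.15 ± 0.14 in AL+NaIO3 against AL+PBS (95% interval -0.47 to 0.18). Without AL+NaIO3 replicate 3 it was -0.30 with a p of 0.0154 by edgeR, and without replicate 2 it was -0.067 with a p of 0.659. The interaction of Ulk1 was 0.19 with a p of 0.268 by the same test. Within initiation, therefore, Rb1cc1 and Atg13 had opposite signs after NaIO3 in fasted mice.

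The nucleation genes encode the lipid kinase PIK3C3, its subunits PIK3R4 and Beclin 1, and the partners that place or restrain it. Ambra1 (chr2:91730134-91918849), whose product binds Beclin 1 and promotes autophagy, was at 87.8, 70.8 and 80.8 in AL+PBS, 85.4, 91.7 and 82.4 in IF+PBS, 71.1, 82.9 and 83.3 in AL+NaIO3, and 73.3, 68.8 and 71.4 in IF+NaIO3. The IF+NaIO3 libraries lay below the IF+PBS libraries without overlap, at 71.2 ± 2.28 against 86.5 ± 4.77 CPM (SD, n = 3 each). The log2 fold change was -0.28 ± 0.093 (SE), with a p of 0.0126 and an adjusted p of 0.232. In AL mice it was -0.0061 (95% interval -0.30 to 0.29) and the interaction gave a p of 0.0962. Uvrag (chr7:98885021-99141141), a Beclin 1 partner of later endosomal steps, was at 51.3, 52.9 and 49.0 in AL+PBS, 51.8, 47.0 and 51.0 in IF+PBS, 45.8, 49.9 and 42.0 in AL+NaIO3, and 46.2, 40.6 and 46.5 in IF+NaIO3. IF+NaIO3 was below IF+PBS in all libraries, although the difference of -0.17 ± 0.10 had a p of 0.127.

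Rubcn, which overlaps Fyttd1, encodes Rubicon, an inhibitor of autophagosome maturation that LC3-associated phagocytosis needs. Its CPM was 71.5, 72.0 and 69.3 in AL+PBS and 80.3, 80.7 and 77.0 in IF+PBS, again without overlap, with a difference of 0.16 ± 0.081 and a p of 0.0713. The core subunits Becn1, Pik3c3, Pik3r4 and Atg14 had no unadjusted p under 0.05 in any of the 4 comparisons (Becn1 overlaps Cntd1). Over the 7 nucleation genes the differences ran from -0.15 to 0.11 for injury in AL mice, from -0.16 to 0.14 for fasting in injured eyes, from -0.16 to 0.16 for fasting alone and from -0.28 to 0.099 for injury in IF mice. Each of these 28 intervals lay inside a fold of 1.5.

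Among the membrane supply genes, Wipi1 (chr11:109573331-109611967) encodes a protein that binds the lipid made by PIK3C3. It was at 49.2, 55.9 and 53.7 in AL+PBS, 53.7, 46.6 and 48.9 in IF+PBS, 55.1, 58.6 and 67.6 in AL+NaIO3, and 46.8, 44.0 and 52.0 in IF+NaIO3. AL+NaIO3 held the highest 2 libraries of all 12, and IF+NaIO3 lay below AL+NaIO3 without overlap. The log2 fold change of IF+NaIO3 against AL+NaIO3 was -0.35 ± 0.13 (SE), with a p of 0.0271 and an adjusted p of 0.371, with a 95% interval of -0.65 to -0.051. AL+NaIO3 replicate 3, the library with the most stromal and macrophage RNA, was the highest, and without it the difference was -0.27 with a p of 0.0541. Atg2b (chr12:105616136-105685211), a lipid transfer protein gene, was at 76.4, 76.4 and 79.0 in AL+PBS, 77.0, 49.2 and 57.0 in IF+PBS, 57.4, 64.8 and 73.8 in AL+NaIO3, and 66.5, 67.0 and 72.2 in IF+NaIO3. Of the IF+PBS libraries, replicate 1 was as high as AL+PBS and the other 2 were the lowest of all 12. IF+PBS against AL+PBS gave -0.34 ± 0.14 (SE), with a p of 0.042 and an adjusted p of 0.274, and without IF+PBS replicate 1 it gave -0.54 with an adjusted p of 0.0127 by the same edgeR test. Without IF+PBS replicate 2 it gave -0.20 with a p of 0.145. Reads of Atg2b and Gskip, which overlap in the annotation, could not be separated. Atg9a, whose protein scrambles lipids in seed vesicles, was at 74.0, 78.7 and 62.8 in AL+NaIO3 and 79.0, 85.7 and 91.9 in IF+NaIO3, without overlap, with a difference of 0.24 ± 0.13 and a p of 0.0926. It overlaps Ankzf1.

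The conjugation genes include the E1-like enzyme gene Atg7, the E2-like genes Atg3 and Atg10, the ATG12-ATG5-ATG16L1 complex and 4 cysteine proteases that process ATG8 proteins. Of these 10 genes, only the protease gene Atg4d (chr9:21265293-21277772) had an unadjusted p under 0.05 in any of the 4 comparisons or the interaction. Atg4d was at 75.5, 68.5 and 63.0 in AL+PBS, 74.7, 85.3 and 77.6 in IF+PBS, 64.7, 74.1 and 50.4 in AL+NaIO3, and 71.0, 66.0 and 64.8 in IF+NaIO3. IF+NaIO3 lay below IF+PBS without overlap, and the difference was -0.23 ± 0.096 (SE), with a p of 0.0353 and an adjusted p of 0.295. Its reads cannot be separated here from those of the overlapping gene Kri1. Atg4b (chr1:93751500-93790610), another of the proteases, which overlaps Thap4, was at 87.7, 71.3 and 90.7 in AL+PBS, 83.6, 79.7 and 80.3 in IF+PBS, 63.7, 74.8 and 70.3 in AL+NaIO3, and 75.2, 71.7 and 72.9 in IF+NaIO3. AL+PBS replicate 2 fell within the injured group, and the other 2 AL+PBS libraries were the highest of all 12. Injury in AL mice gave -0.25 ± 0.13 with a p of 0.0913 and a 95% interval of -0.55 to 0.051. Atg12 (chr18:46730144-46741580), the ubiquitin-like partner of ATG5, was at 83.9, 87.1 and 77.0 in AL+PBS, 78.1, 82.6 and 66.6 in IF+PBS, 92.0, 70.1 and 68.0 in AL+NaIO3, and 84.5, 90.3 and 81.4 in IF+NaIO3. Groups overlapped in each comparison, and the largest of its 4 differences was 0.17 ± 0.11, for injury in IF mice, which was 0.089 without IF+PBS replicate 3. Without AL+NaIO3 replicate 1, the highest library, injury in AL mice moved from -0.10 to -0.26 (p of 0.0455) and fasting in injured eyes from 0.15 to 0.31 (p of 0.0318). Without AL+NaIO3 replicate 3 these became -0.030 (p of 0.829) and 0.066 (p of 0.651) by the same edgeR test. Atg5, Atg7, Atg3 and Atg16l1 likewise kept to between -0.2 and 0.2 in log2 fold change in each comparison and each had its 4 intervals inside a fold of 1.5.

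The genes of ATG8 proteins are the most abundant conjugation substrates of the list. Map1lc3a (chr2:155276297-155278073), an LC3 gene, was at 93.6, 101 and 92.6 in AL+PBS, 94.9, 133 and 119.9 in IF+PBS, 109, 96.0 and 74.9 in AL+NaIO3, and 110.0, 82.4 and 92.5 in IF+NaIO3. IF+PBS replicates 2 and 3 were the highest of all 12 libraries, while replicate 1 lay within AL+PBS. The difference for fasting without injury was 0.28 ± 0.12 (SE), with a p of 0.0431 and an adjusted p of 0.276. Without IF+PBS replicate 1 it was 0.40 with an adjusted p of 0.0195 by edgeR, and without replicate 2 it was 0.17 with a p of 0.174. In injured eyes the same contrast of diets gave 0.021 (95% interval -0.38 to 0.42). Gabarap (chr11:69991143-69994951) was at 41.4, 45.3 and 43.3 in AL+PBS, 21.3, 53.3 and 47.3 in IF+PBS, 50.5, 43.9 and 64.6 in AL+NaIO3, and 45.6, 40.4 and 38.6 in IF+NaIO3. The value of IF+PBS replicate 1 was less than the lowest of the other 11 libraries, 38.6, and the highest was AL+NaIO3 replicate 3. Fasting in injured eyes gave -0.36 ± 0.16 (p of 0.0603), and -0.19 without that library (p of 0.172). Fasting without injury gave -0.091, which became 0.21 without IF+PBS replicate 1. Gabarapl1, Gabarapl2 and Map1lc3b had no unadjusted p under 0.05 in any comparison, and Map1lc3b, the LC3 gene most used as an autophagosome marker, ranged from 121 to 156 CPM over the 12 libraries. It overlaps Zcchc14 and Galnt2l in the annotation.

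The receptors bind ubiquitin chains on one side and ATG8 proteins on the other. Optn (chr2:5020642-5064051) encodes optineurin, a receptor for damaged mitochondria and bacteria that is known as a glaucoma gene. It was at 207, 204 and 216 in AL+PBS, 217, 166 and 173 in IF+PBS, 187, 161 and 81.2 in AL+NaIO3, and 202, 215 and 221 in IF+NaIO3. In AL+NaIO3, 3 of 3 libraries were below each AL+PBS and each IF+NaIO3 library, and replicate 3 was the lowest by far. AL+NaIO3 against AL+PBS gave -0.54 ± 0.27 (SE), with a p of 0.082 and an adjusted p of 0.543, and IF+NaIO3 against AL+NaIO3 gave 0.57 ± 0.27 (SE), with a p of 0.0713 and an adjusted p of 0.469, and both rest on the same AL+NaIO3 libraries. The interaction was 0.75 ± 0.32 (SE), with a p of 0.0367 and an adjusted p of 0.396, with a 95% interval of 0.054 to 1.45. Without AL+NaIO3 replicate 3 these values were -0.27 (p of 0.0406), 0.28 (p of 0.0503) and 0.46 (p of 0.0146). Under the alternatives run, their largest p were 0.158, 0.148 and 0.0777 in the same order. These came by edgeR without AL+PBS replicate 3, without IF+NaIO3 replicate 3 and without IF+PBS replicate 2. The summed photoreceptor markers of the AL+NaIO3 libraries were 17070, 11367 and 6349 FPKM in replicates 1, 2 and 3, in the same order as their Optn, and in the other 9 libraries they were 14281 to 16104 FPKM. Photoreceptor markers were lower after NaIO3 in AL mice for 8 of 10 genes (median -0.50). The sum of 8 Muller cell and astrocyte markers was in the reverse order in AL+NaIO3, at 2043, 2449 and 4204 FPKM, against 1497 to 1800 in the other 9 libraries. Of these sums Apoe alone made 1075, 1393 and 2856 FPKM, against 552 to 784 in the other 9 libraries. Glul, on the same list, was at 596, 668 and 727 FPKM, against 756 to 834 in AL+PBS. Of the 8 genes, 6 were higher after NaIO3 in AL mice. The part of either list in the Optn values was not tested. In IF+PBS, replicates 2 and 3 had Optn at 166 and 173 CPM with photoreceptor sums of 15642 and 15737 FPKM.

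**Figure D4:**
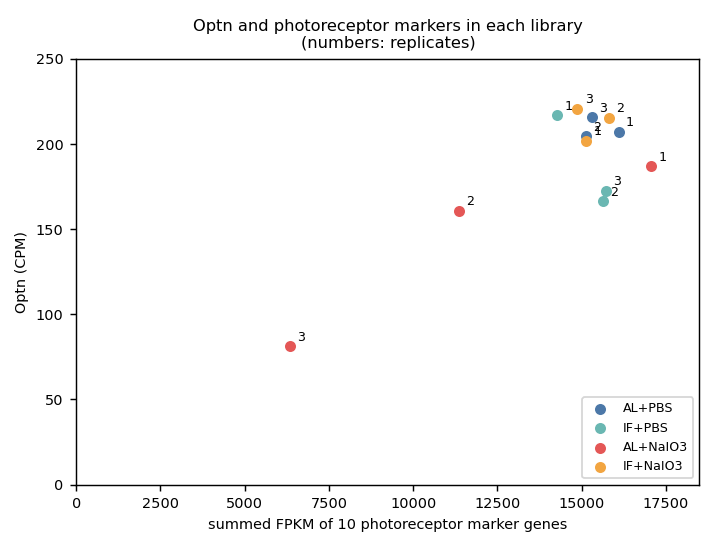
Optn in CPM against the summed FPKM of 10 photoreceptor marker genes, 1 point for each of 12 libraries, coloured by group and numbered by replicate. AL+NaIO3 replicate 3 lies apart at 81.2 CPM and 6349 FPKM, and the libraries of the other groups have 14281 to 16104 FPKM with Optn from 166 to 221 CPM.

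Tax1bp1 (chr6:52713729-52766780) was at 328, 389 and 361 in AL+PBS, 365, 329 and 340.4 in IF+PBS, 509, 362 and 326 in AL+NaIO3, and 412, 458 and 366 in IF+NaIO3. Each IF+NaIO3 library was above each IF+PBS library, and the highest of all 12 was AL+NaIO3 replicate 1. The difference after NaIO3 in fasted mice was 0.26 ± 0.10 (SE), with a p of 0.0285 and an adjusted p of 0.281, and in AL mice it was 0.16 (95% interval -0.28 to 0.59). The interaction was 0.11 with a p of 0.635, and without AL+NaIO3 replicate 1 the difference in AL mice was -0.066. Nbr1, a receptor related to p62, was at 249, 257 and 263 in AL+PBS, 238, 224 and 232 in IF+PBS, 267, 212 and 226 in AL+NaIO3, and 244, 301 and 256 in IF+NaIO3. IF+PBS lay below AL+PBS and below IF+NaIO3 without overlap, with p values of 0.0938 and 0.0625, and AL+NaIO3 spread across the other groups and held the lowest library. Sqstm1, the p62 gene, ranged over libraries from 228 to 296 CPM and had differences between -0.14 and 0.13 in the 4 comparisons, with no p under 0.05. Part of its reads may belong to the overlapping gene Mrnip.

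**Figure D5:**
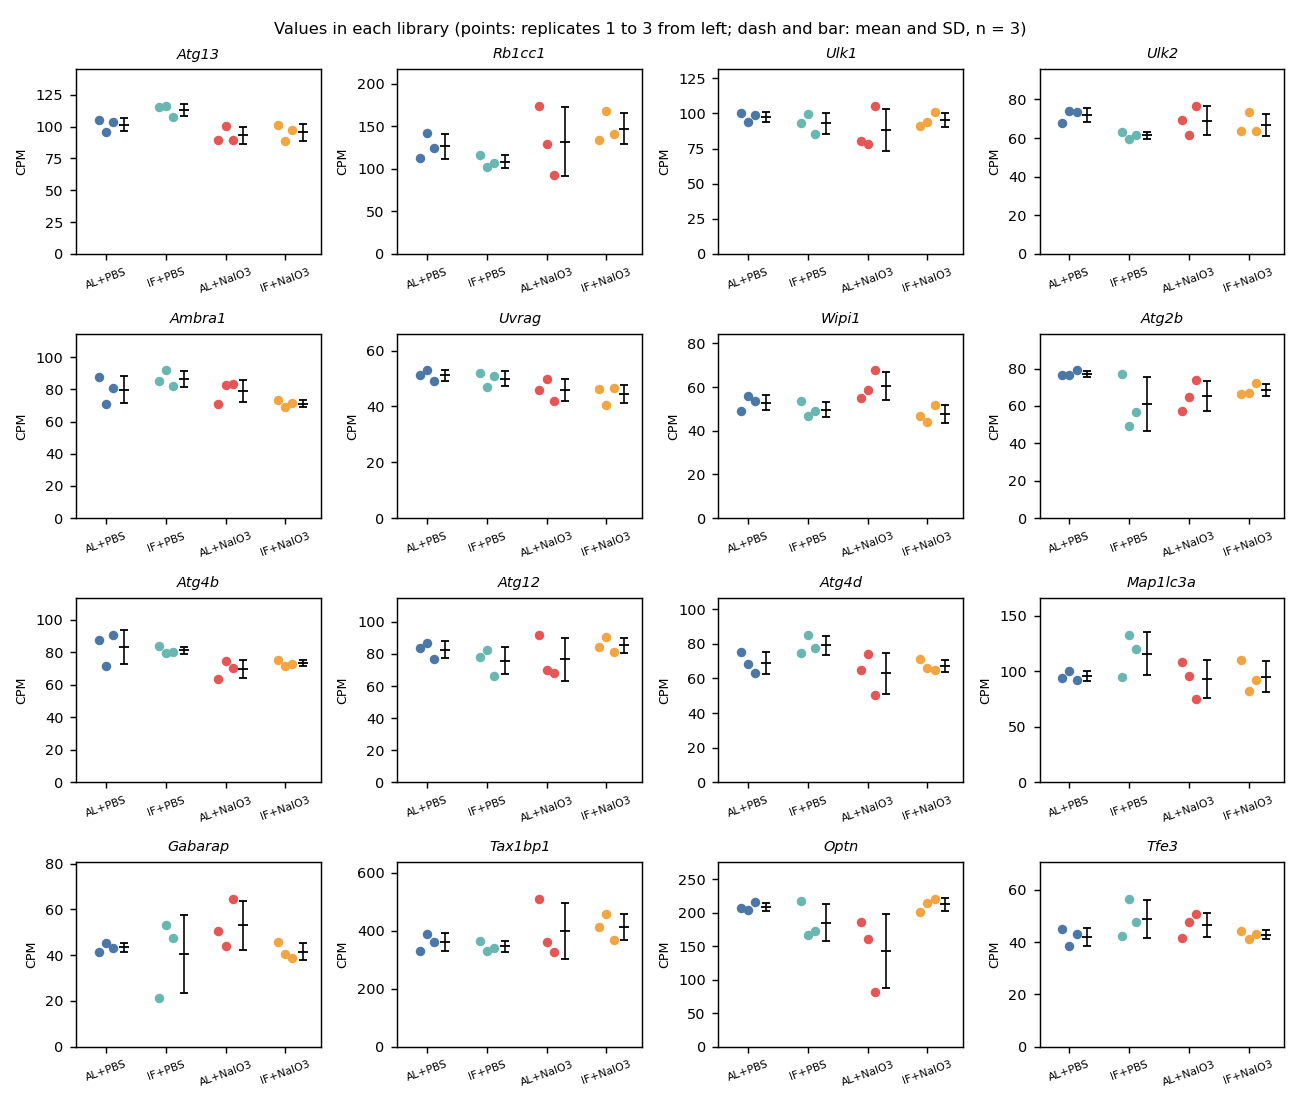
CPM of 16 genes in each library (points, replicates 1 to 3 from the left) with the mean and SD of each group of 3 (dash and bar), on axes that start at 0. Groups lie at like heights in most panels, and the low points are Optn in AL+NaIO3 replicate 3 at 81.2 CPM and Gabarap in IF+PBS replicate 1 at 21.3 CPM.

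Tfeb and Tfe3 encode related transcription factors that switch on lysosomal and autophagy genes when they enter the nucleus. Tfe3 (chrX:7762560-7775202) was at 45.0, 38.4 and 43.0 in AL+PBS, 42.2, 56.6 and 47.6 in IF+PBS, 41.5, 47.6 and 50.6 in AL+NaIO3, and 44.4, 41.2 and 43.2 in IF+NaIO3. All groups overlapped, the differences were 0.15, -0.12, 0.22 and -0.18 in the order of the comparisons above, and no p was under 0.05. Without AL+NaIO3 replicate 3, injury in AL mice gave 0.080 and fasting in injured eyes -0.062. Without IF+PBS replicate 1, fasting alone gave 0.31 (p of 0.0205 by edgeR) and injury in IF mice -0.28 (p of 0.0295). Without IF+PBS replicate 2 the same comparisons gave 0.095 and -0.063. Tfeb ranged from 9.80 to 19.0 CPM, with its highest value in IF+PBS replicate 2. Their palindromic target, known as the CLEAR element, was looked for with its shorter cores on both strands of the RefSeq promoter sequences (GRCm38.p6), which are 300 bases long and end shortly after the transcription start. Of the 37 members 31 had a promoter there, and Rb1cc1, Becn1, Pik3c3, Atg12, Atg16l1 and Map1lc3a had none there.

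The 6-base core CACGTG was in promoters of 5 members, Atg14, Rubcn, Atg3, Atg5 and Atg7, beside 8.09% of 27025 genes. A gene counted if any of its promoters held the match. The 8-base form GTCACGTG, which contains this core, was in promoters of 3 members, Atg14, Atg3 and Atg7 (2.55% of all genes). The form TCACGTGA was found for Atg3 (1.12% of all genes) and the full element for none (0.370% of all genes). GTAAACA, a core bound by FOXO factors, and TGACTCA, a core bound by AP-1, were in none of the 31 (4.05% and 5.95% of all). The windows with GTCACGTG, or its reverse complement in Atg14, are shown in the direction of the gene with the matches in capitals, because they hold the longest part of the CLEAR element found in more than 1 member. They lie at chr16:45158707-45158789 (plus strand) for Atg3, chr6:114670936-114670995 (plus strand, at an inner RefSeq start of the gene) for Atg7 and chr14:47568417-47568446 (minus strand, also at an inner RefSeq start) for Atg14:
Atg3: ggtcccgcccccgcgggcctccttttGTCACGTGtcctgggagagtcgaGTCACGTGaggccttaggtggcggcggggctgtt
Atg7: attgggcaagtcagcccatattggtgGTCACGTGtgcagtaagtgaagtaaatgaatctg
Atg14: aaacaaaatccCACGTGACtggccctgagc

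None of these 3 genes had an unadjusted p under 0.05 in any of the 4 comparisons. In the order above, their log2 fold changes were 0.095, -0.15, -0.085 and 0.040 for Atg3, -0.042, -0.070, -0.013 and -0.093 for Atg7 and -0.095, 0.057, 0.055 and -0.087 for Atg14. A match is a stretch of letters and was not measured as a binding site.

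Around the machinery stand the nutrient sensors that govern it and the steps that follow it, given here as 6 further lists. These were 12 other core autophagy genes, 29 genes of mTORC1 and its lysosomal regulators, 8 genes of AMPK and its kinases, 14 receptors of mitophagy and ER-phagy, 14 genes of fusion with lysosomes and 5 FOXO and MiT transcription factors. None of them had a called gene in any of the 4 comparisons or the interaction by edgeR's quasi-likelihood test. An unadjusted p under 0.05 in injury of AL mice, where 10.2% of all genes had one, was found for 0 of 12 other core autophagy genes, 1 of 29 mTORC1 genes (1 higher, 0 lower), 2 of 8 AMPK genes (0 higher, 2 lower), 1 of 14 mitophagy and ER-phagy receptors (1 higher, 0 lower), 2 of 14 fusion genes (0 higher, 2 lower) and 0 of 5 FOXO and MiT genes. Castor1, Camkk2 (-0.38, p of 0.0367), Retreg1 (0.37, p of 0.046) and Vamp8 (-0.57, p of 0.0303) had the smallest p of their lists. Camkk2 encodes a kinase that activates AMPK, Retreg1 an ER-phagy receptor and Vamp8 a SNARE of fusion. For fasting in injured eyes, beside 11.7% of all genes, such a p was found for 1 of 12 other core autophagy genes (1 higher, 0 lower), 3 of 29 mTORC1 genes (1 higher, 2 lower), 0 of 8 AMPK genes, 0 of 14 mitophagy and ER-phagy receptors, 0 of 14 fusion genes and 0 of 4 FOXO and MiT genes, and Tmem41b, a lipid scramblase gene, gave 0.36, p of 0.0155. For fasting alone, beside 17.1%, it was found for 3 of 12 other core autophagy genes (3 higher, 0 lower), 7 of 29 mTORC1 genes (4 higher, 3 lower), 4 of 8 AMPK genes (2 higher, 2 lower), 4 of 14 mitophagy and ER-phagy receptors (2 higher, 2 lower), 1 of 14 fusion genes (1 higher, 0 lower) and 1 of 4 FOXO and MiT genes (0 higher, 1 lower), with Prkag1 (0.35, p of 0.00381), Tecpr1 (0.23, p of 0.0355) and Foxo3 (-0.21, p of 0.0294) leading the lists of AMPK, fusion and FOXO genes. For injury in IF mice, beside 15.2%, it was found for 3 of 12 other core autophagy genes (2 higher, 1 lower), 5 of 29 mTORC1 genes (1 higher, 4 lower), 1 of 8 AMPK genes (1 higher, 0 lower), 5 of 14 mitophagy and ER-phagy receptors (3 higher, 2 lower), 0 of 14 fusion genes and 0 of 4 FOXO and MiT genes, with Tbk1 (0.27, p of 0.0287), which phosphorylates receptors, and Tsc2 (-0.34, p of 0.00322), which restrains mTORC1, leading theirs. In the interaction, beside 12% of all genes, it was found for 1 of 12 other core autophagy genes (1 higher, 0 lower), 5 of 29 mTORC1 genes (3 higher, 2 lower), 1 of 8 AMPK genes (1 higher, 0 lower), 1 of 14 mitophagy and ER-phagy receptors (1 higher, 0 lower), 0 of 14 fusion genes and 1 of 5 FOXO and MiT genes (1 higher, 0 lower), with Tmem41b (0.47, p of 0.00464) and Foxo3 (0.30, p of 0.0334) leading theirs. The genes with the smallest p of a list, but a p above 0.05, were Tmem41b (-0.23, p of 0.062) and Mitf (0.83, p of 0.189) for injury in AL mice and Stk11 (0.32, p of 0.0505), Calcoco1 (0.23, p of 0.0624), Vps16 (0.31, p of 0.0518) and Mitf (-0.56, p of 0.193) for fasting in injured eyes. For injury in IF mice they were Tecpr1 (-0.23, p of 0.0649) and Foxo3 (0.16, p of 0.129), and in the interaction Tecpr1 (-0.34, p of 0.0515). Tecpr1 is on 2 of the lists.

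Castor1, which encodes an arginine sensor that restrains mTORC1, had the largest difference of these lists. Its CPM was 2.37, 1.72 and 2.03 in AL+PBS, 2.46, 2.73 and 2.91 in IF+PBS, 4.69, 4.30 and 7.74 in AL+NaIO3, and 2.19, 2.45 and 2.24 in IF+NaIO3. The AL+NaIO3 libraries lay above all others, at a low level. The log2 fold change was 1.46 ± 0.35 (SE, p of 0.0032, adjusted p of 0.259) for injury in AL mice, and -1.29 ± 0.34 (SE, p of 0.00515, adjusted p of 0.251) for fasting in injured eyes. The interaction was -1.68 ± 0.40 (SE, p of 0.00107, adjusted p of 0.207). Both comparisons use the same AL+NaIO3 libraries. AL+NaIO3 is also the group with the most macrophage and microglia RNA, whose part was not tested. Bnip3, a hypoxia-induced mitophagy receptor, had CPM of 174, 199 and 172 in AL+PBS, 126, 146 and 126 in IF+PBS, 169.8, 127 and 134 in AL+NaIO3, and 160.2, 176 and 177 in IF+NaIO3. The IF+PBS libraries were lower than AL+PBS and IF+NaIO3 without overlap. The difference was -0.45 ± 0.099 (SE, p of 0.000985, adjusted p of 0.175) for fasting alone, 0.37 ± 0.099 (SE, p of 0.00348, adjusted p of 0.212) for injury in IF mice, which shares the IF+PBS libraries, and 0.71 ± 0.18 (SE, p of 0.00151, adjusted p of 0.223) in the interaction. For fasting alone (IF+PBS against AL+PBS), Wdr45, a WIPI family member, gave 0.44 ± 0.100 (SE, p of 0.00131, adjusted p of 0.175), and Akt1s1, an inhibitory subunit of mTORC1, gave 0.40 ± 0.10 (SE, p of 0.00258, adjusted p of 0.175), both higher in IF+PBS. Of the AMPK catalytic subunits, Prkaa1 gave 0.33 ± 0.12 (SE, p of 0.0218, adjusted p of 0.267) for injury in IF mice and 0.36 ± 0.17 (SE, p of 0.0493, adjusted p of 0.415) in the interaction. Its CPM was 42.7, 44.4 and 46.1 in AL+PBS, 43.4, 32.9 and 33.8 in IF+PBS, 45.2, 42.9 and 42.9 in AL+NaIO3, and 42.9, 49.1 and 46.7 in IF+NaIO3. For fasting alone, which shares the IF+PBS libraries, both catalytic subunit genes, Prkaa1 and Prkaa2, were lower with an unadjusted p under 0.05.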

How the data were processed

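The 12 libraries (3 in each of AL+PBS, IF+PBS, AL+NaIO3 and IF+NaIO3, grouped by the labels) had been made from poly-A RNA. The gene counts were deposited by the authors as raw whole numbers per library, and the FPKM values were scaled by the authors for gene length and depth. The submitters' processing notes name HISAT2, StringTie, DESeq2 and edgeR, while the counting tool, annotation and use of strand are not given in the sources used here. The notes name GRCm39, but the positions in the table are those of GRCm38: 37 of 37 members overlapped their RefSeq gene on GRCm38.p6, and 8 their GENCODE gene on GRCm39. The authors' own fold changes and p-values between groups were not used.

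Each comparison was fitted across all genes of its 6 libraries, and the interaction across all genes of the 12 libraries, with edgeR 4.0.16 (R 4.3.3; filterByExpr, TMM factors from 0.935 to 1.12, glmQLFit and glmQLFTest) and Benjamini-Hochberg adjustment. Calls in the comparisons needed a fold of at least 1.5 and an adjusted p under 0.05, and those of the interaction only the latter. Intervals are 95% from the fitted difference and its SE. CPM were computed from the counts, and groups of CPM were compared for overlap. Alternatives were DESeq2 1.42.0, upper quartile factors, no filter, at least 10 counts in each library, a replicate block, all 12 libraries in 1 fit and each library left out. Between replicates of a group, counts differed by far more than sampling noise (chi-square per gene 12.8 to 229).

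The members and lists were chosen with earlier results of these data known. Values in every library are given for members with an unadjusted p under 0.05 in any comparison or the interaction, and for the member of each role with the largest difference in AL+NaIO3 against AL+PBS or IF+NaIO3 against AL+NaIO3. Genes of other lists were named where they had the smallest p of their list in a comparison. Members and other genes singled out beyond this, for groups that do not overlap or for their known role, were chosen after their values were seen.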

Additional observations from a re-analysis of the deposited data

How the results depend on the processing

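The count of members called stayed at 0 under every alternative run for the 4 comparisons and the interaction. With no fold threshold, DESeq2 gave 1 member (Rb1cc1) for IF+NaIO3 against IF+PBS, and leaving out 1 library gave 0 to 3 for IF+PBS against AL+PBS and 0 to 1 for IF+NaIO3 against IF+PBS. The highest of these came without IF+PBS replicate 1, where 1779 of 15602 and 458 of 15522 genes had an adjusted p under 0.05. The median of the members changed sign for IF+NaIO3 against AL+NaIO3 with upper quartile factors (-0.0059), which moved the median of all genes to -0.059, and for IF+PBS against AL+PBS with a library left out (-0.037 to 0.082). For IF+NaIO3 against IF+PBS it was -0.090 to -0.019 with a library left out. The cause was not tested. The SD of the members' median between replicates was 0.0342. The counts without a fold threshold and the unadjusted counts under each alternative were chosen after seeing the data. Of 1040 values of the 16 members named by the rule, 43 changed sign, none of them called and none with an unadjusted p under 0.05 in the values reported. Of the 10 results with such a p, 8 had a p of 0.05 or more with at least 1 library left out.

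Replicate numbers did not pair the libraries (correlations of same-numbered deviations -0.10 to 0.14). With a replicate block, 0 members were called in each comparison, and 1, 2, 3 and 1 had an unadjusted p under 0.05 in the order of the report (beside 7.40%, 11.4%, 15.4% and 10% of all genes), and 1 in the interaction (10.1%).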
